A study of Mus musculus with 8 samples.

Results

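The genes described here are 10 transcription factor genes of blood stem and progenitor cells, Meis1, Gata2, Tal1, Lmo2, Runx1, Erg, Gfi1, Gfi1b, Hlf and Mecom, out of 21755 protein-coding genes on chromosomes 1 to 19 and X. They were listed by name and not for how their values moved, and all 10 were found in the annotation. Peaks of 5-hydroxymethylcytosine (5-hmC) were counted over each gene from 5 kb before its start to 5 kb after its end, a stretch called its window, and each gene was ranked among the protein-coding genes whose length lay within 25% of its own. The windows came to 1417 kb in all. The 5-hmC was mapped by hMeDIP-seq, in which an antibody against 5-hmC pulls down sheared genomic DNA for sequencing.

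The cells were B220+CD43+IgM- pro-B cells, the early committed B cell stage, sorted from the bone marrow of C57BL/6 mice aged 4-6 weeks. The HDAC7-deficient mice carried 1 floxed and 1 null allele of Hdac7 (Hdac7 fl/-) with Mb1-Cre, a Cre recombinase placed in Cd79a and so active in the B lineage from an early stage. Their controls, labelled wild-type, were Hdac7 +/- littermates, so that both groups carried a null allele of Hdac7, a class IIa histone deacetylase expressed in the lymphoid lineage. Each group had 2 libraries, wild-type 1 and 2 and HDAC7-deficient 1 and 2. Whether a library came from 1 mouse or from pooled mice is not given in the sources used here, so the spread between the libraries of a group may be technical in part. Peak positions do not measure the Hdac7 transcript, and the genotypes rest on the labels.

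The lists held between 1305200 and 1414862 peaks a library, with median widths of 146 to 172 bp, and covered 8.72 to 10.4% of chromosomes 1 to 19 and X. Coverage was 8.93 and 10.2% in wild-type 1 and 2 and 8.72 and 10.4% in HDAC7-deficient 1 and 2, lower in both libraries numbered 1. The lists give positions without heights, so that the depth is unknown and a missing peak is not a measured absence of 5-hmC. Chromosome 16, which carries Runx1 and Erg, stood apart in HDAC7-deficient 2, where its peaks per megabase were 1.12 times those of chromosomes 1 to 13, against 0.976 to 0.982 times in the other libraries.

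5-hmC is made from 5-methylcytosine by the TET dioxygenases, mainly at CpG dinucleotides. It is an intermediate of DNA demethylation, and in many cell types it lies over gene bodies and distal regulatory elements and is low at the start of active CpG-island genes. Several of the factors, among them Tal1, Lmo2, Gata2, Runx1, Erg, Meis1 and Gfi1b, bind together at enhancers in blood progenitor cells. Some, such as Runx1, Erg and Gfi1, act in early B lineage cells too, while Meis1, Gata2, Hlf and Mecom are known for the most immature cells.

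For each gene the longest stretch of its window that lay under a peak in all 4 libraries is described. The 10 windows held 231 such stretches with a median width of 74 bp, so the longest ones need not be typical. Stretches of wholly or mostly unmasked sequence are shown for Gata2, Gfi1 and Hlf, and a stretch of simple repeat for Erg, of which the central part is printed. All are read on the plus strand of GRCm38, with CpG dinucleotides in capitals.
Gata2, chr6:88191052-88191314: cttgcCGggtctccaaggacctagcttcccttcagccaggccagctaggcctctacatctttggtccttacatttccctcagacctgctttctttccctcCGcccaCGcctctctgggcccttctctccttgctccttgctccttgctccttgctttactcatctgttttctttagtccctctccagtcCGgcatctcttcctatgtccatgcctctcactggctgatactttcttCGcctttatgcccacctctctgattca
Gfi1, chr5:107727219-107727384: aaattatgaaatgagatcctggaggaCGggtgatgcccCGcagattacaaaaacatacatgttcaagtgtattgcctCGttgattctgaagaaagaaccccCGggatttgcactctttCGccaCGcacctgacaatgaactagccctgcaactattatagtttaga
Hlf, chr11:90353668-90353908: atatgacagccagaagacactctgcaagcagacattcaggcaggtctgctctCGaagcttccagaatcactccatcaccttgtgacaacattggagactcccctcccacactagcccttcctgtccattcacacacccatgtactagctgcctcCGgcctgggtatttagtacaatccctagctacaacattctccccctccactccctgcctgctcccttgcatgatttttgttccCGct
Erg, chr16:95399961-95400260: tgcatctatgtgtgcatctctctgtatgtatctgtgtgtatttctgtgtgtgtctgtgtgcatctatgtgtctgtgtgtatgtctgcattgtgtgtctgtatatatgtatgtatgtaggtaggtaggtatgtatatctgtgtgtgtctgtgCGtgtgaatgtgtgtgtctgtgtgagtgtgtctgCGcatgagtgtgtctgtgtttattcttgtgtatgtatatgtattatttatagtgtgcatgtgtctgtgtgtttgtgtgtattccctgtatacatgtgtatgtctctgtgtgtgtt

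The Gata2 stretch was 263 bp long, lay upstream, at -2.71 kb from the start of the gene, held 5 CpG dinucleotides and had no soft-masked (repeat) base. The Gfi1 stretch was 166 bp long, lay at -1.27 kb, held 6 CpG dinucleotides and had no repeat base either. The Hlf stretch, 241 bp in an intron at 37.1 kb from the start, was 17.4% repeat. The Erg stretch of 763 bp in an intron at 186 kb was 95.4% repeat and TG-rich. Meis1 had a similar TG-rich stretch of 188 bp in an intron at 128 kb, 78.2% repeat, and the 273 bp of Gfi1b, at -3.76 kb, were 96.7% repeat. Tal1 (396 bp, at -3.13 kb), Lmo2 (199 bp, intronic) and Mecom (301 bp, intronic) had stretches that were 32.6%, 15.6% and 51.2% repeat. The longest shared stretches of these genes thus included both CpG-bearing unmasked sequence and CpG-poor repeats.

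The 10 genes did not form a group in their level of 5-hmC peaks. Runx1, Erg, Gfi1b and Tal1 had more of their window under peaks than most genes of like length, and Meis1 and Mecom had less. Gfi1, Lmo2 and Hlf lay near the middle and Gata2 below it. The median of the 10 percentiles was 51.8 for the percent of bases under peaks and 63.1 for peaks per kb.

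**Figure D1:**
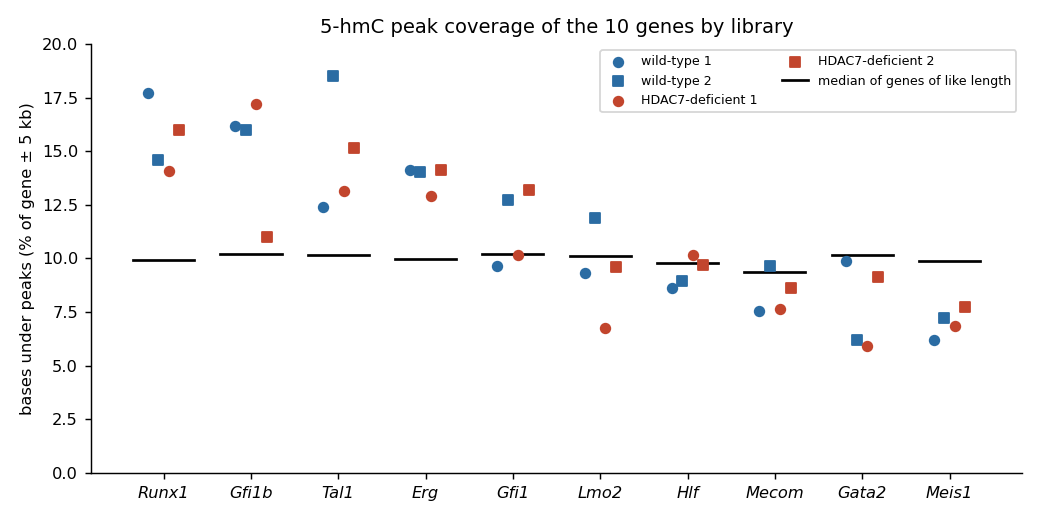
Percent of each gene's window (gene ± 5 kb, vertical axis) under 5-hmC peaks in each of the 4 libraries, with genes ordered by their mean. The horizontal lines give the median over protein-coding genes of like length of their mean over the 4 libraries. All 4 points of Runx1, Erg, Gfi1b and Tal1 lie above the line and all 4 points of Meis1 and Gata2 below it. Ranked within wild-type 1 alone, Gata2 was at the 53.0th percentile.

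Runx1 (chr16:92601466-92826149, minus strand), the DNA-binding subunit of core-binding factor and needed for the first blood stem cells, had the highest level. Its window of 235 kb held 249 peaks in wild-type 1, 179 in wild-type 2, 198 in HDAC7-deficient 1 and 197 in HDAC7-deficient 2. Peaks covered 17.7, 14.6, 14.1 and 16.0% of it in the same order, 15.6% ± 1.62 (SD, n = 4), against a median of 9.94% over 624 genes of like length. None of the 624 had a higher mean, and Runx1 ranked between the 97.9th and the 99.8th percentile in each library taken alone.

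Erg (chr16:95359169-95586593, minus strand), an ETS factor that maintains stem cells, lies on the same chromosome and varied least across libraries in the percent of bases under peaks. It had 181 and 158 peaks in wild-type against 190 and 163 in HDAC7-deficient cells. Peaks covered 14.1, 14.03, 12.9 and 14.1% of its window, 13.8% ± 0.584 (SD, n = 4), at the 93.2nd to 97.6th percentile of 618 genes. Both long genes stayed high when soft-masked bases were left out, with mean percentiles of 98.6 for Runx1 and 93.9 for Erg.

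The partners Gata2, Tal1 and Lmo2 act in 1 complex, in which the LIM-only protein Lmo2 bridges the zinc finger factor Gata2 and the basic helix-loop-helix factor Tal1. Tal1 (chr4:115056426-115071755, plus strand) had 21 and 24 peaks in wild-type against 21 and 19 in HDAC7-deficient cells, and 12.4, 18.5, 13.1 and 15.1% of its window was under peaks. Its mean of 14.8% ± 2.73 (SD, n = 4) was at the 87.4th percentile of genes of like length. Lmo2 (chr2:103957986-103981878, plus strand) had 18 and 24 against 15 and 19 peaks, covering 9.32, 11.9, 6.74 and 9.59% of its window, with a mean of 9.38% ± 2.10 at the 40.9th percentile. Its window overlaps another protein-coding gene, 4931422A03Rik, so its peaks cannot be assigned to Lmo2 alone.

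Gata2 (chr6:88193891-88207032, plus strand) was low although its window was among the richest in CpG, with 31.9 CpG per kb, at the 99.8th percentile of genes of like length. It had 12 and 7 peaks in wild-type against 12 and 13 in HDAC7-deficient cells. Peaks covered 9.90, 6.19, 5.93 and 9.13% of the window, 7.79% ± 2.02 (SD, n = 4). Its rank moved from the 12.4th to the 53.0th percentile between libraries, so its position among genes of like length is poorly determined. The sequence under its peaks held 24 CpG per kb, fewer than the window as a whole.

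Gfi1 and Gfi1b encode related SNAG-domain zinc finger repressors, Gfi1 of lymphoid and myeloid progenitors and Gfi1b of erythroid and megakaryocyte cells. Gfi1b (chr2:28609450-28621982, minus strand) had 19 and 21 peaks in wild-type against 25 and 16 in HDAC7-deficient cells, over 16.2, 16.0, 17.2 and 11.02% of its window. Its mean of 15.1% ± 2.77 (SD, n = 4) was at the 88.1st percentile. That rank rested in part on repeats, which made up 46.3% of its peak bases against 25.2% of its window, and without soft-masked bases it was at the 59.5th. Gfi1 (chr5:107716657-107726036, minus strand) had 16 and 16 against 15 and 10 peaks, over 9.63, 12.7, 10.2 and 13.2% of its window, a mean of 11.4% ± 1.78 at the 61.1st percentile.

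Meis1 (chr11:18879817-19018985, minus strand), a TALE homeobox partner of Hox and Pbx proteins, had the lowest level. It had 65 and 76 peaks in wild-type against 62 and 71 in HDAC7-deficient cells, and 6.21, 7.22, 6.83 and 7.73% of its window was under peaks. Its mean of 7.0% ± 0.643 (SD, n = 4) was at the 5.70th percentile of 1158 genes, and it stayed between the 6.39th and the 13.2nd in the single libraries. Without soft-masked bases it was at the 3.8th percentile.

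Mecom (chr3:29951296-30548008, minus strand) encodes the zinc finger factors Mds1-Evi1 and Evi1 and is the longest of the 10, with 254 and 293 peaks in wild-type against 280 and 265 in HDAC7-deficient cells. Peaks covered 7.57, 9.64, 7.63 and 8.64% of its window, a mean of 8.37% ± 0.978 (SD, n = 4) at the 17.0th percentile of only 176 genes of like length. Hlf (chr11:90336536-90390895, minus strand), a PAR bZIP factor of quiescent stem cells, had 40 and 33 against 41 and 32 peaks, over 8.61, 8.93, 10.2 and 9.68% of its window, at the 42.4th percentile. In the order of the means, Runx1, Gfi1b, Tal1 and Erg overlapped one another across libraries, as did Lmo2, Hlf, Mecom, Gata2 and Meis1 from each to its neighbour.

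Where the peaks lay differed from gene to gene. Averaged over the 10 genes and the 4 libraries, the 5 kb upstream held the most. There 15.1, 15.1, 12.6 and 14.7% of bases were under peaks against 10.5% for genes of like length, but other positions exceeded it in wild-type 2 (15.8% in the seventh of 10 equal parts of the gene body) and in HDAC7-deficient 1 (12.8% in the first). The fourth part held the least on average, 6.70, 6.94, 6.88 and 5.30% against 10.4%, although the fifth was lower in HDAC7-deficient 1 (6.35%). In the upstream 5 kb the range over genes was wide, from 3.40% at Meis1 to 27.3% at Runx1, so the average describes few of them.

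**Figure D2:**
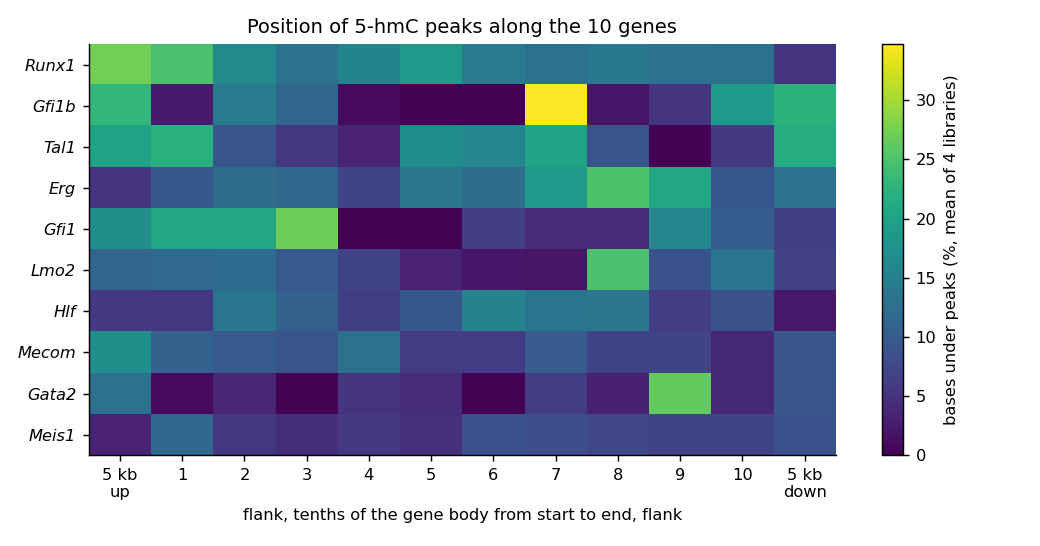
Percent of bases under 5-hmC peaks (colour, mean of 4 libraries) in the 5 kb upstream, in 10 equal parts of the gene body from start to end, and in the 5 kb downstream, for each gene. Runx1 is brightest around its start (27.3% upstream), Erg in the eighth part (24.9%), and Gata2 is dark through most of its body.

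Runx1 was densest around its start on average and in 3 of the 4 libraries, while in HDAC7-deficient 2 the fifth part of the body was higher, at 26.5%. The 5 kb upstream was 26.3, 27.8, 30.9 and 24.4% under peaks and the first of the 10 parts of the body 30.2, 19.2, 25.2 and 24.4%. Runx1 is transcribed from a distal promoter and from a proximal, CpG-rich one 128.7 kb into the gene. Between both promoters, 21.9, 13.7, 16.7 and 18.2% of bases were under peaks, and from the proximal promoter to the end of the gene 12.1, 15.7, 10.2 and 13.2%. The first interval was higher in 3 of the 4 libraries and lower in wild-type 2.

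Erg was denser past its last promoter than before it in all 4 libraries. From the RefSeq promoter that lies 127.1 kb from the start to the end of the gene, 18.8, 16.9, 16.2 and 19.6% of bases were under peaks. The preceding interval from 56.2 kb on had 9.73, 10.9, 10.1 and 12.4%, and the interval from the start to 56.2 kb 10.6, 14.5, 11.6 and 7.98%. Erg also held a gap of 8514 bp without a peak in any library, from 69.7 to 78.2 kb, of which 94.0% was repeat.

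Mecom thinned out towards its end. Its last 61.9 kb, downstream of the promoter of the shorter Evi1 transcript, had 3.36, 4.67, 2.72 and 5.25% of bases under peaks, against 7.81, 9.95, 7.94 and 8.84% in the 497 kb before that promoter, lower in every library. Upstream of it lay the longest gap of the 10 genes, 10001 bp without a peak, which was 78.0% repeat. Reads of repeats can fail to map to 1 place, and whether that left these gaps was not tested.

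**Figure D3:**
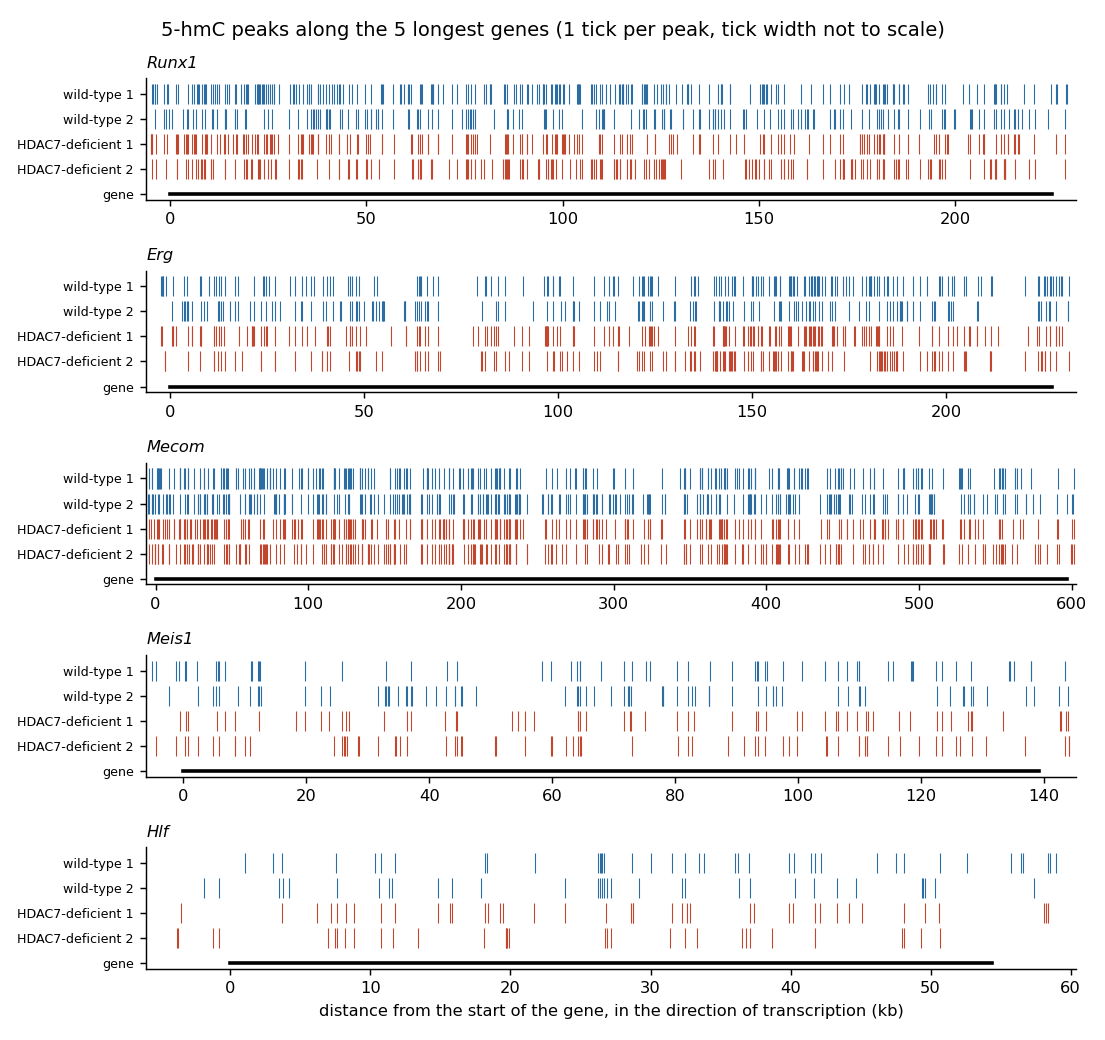
Peaks along Runx1, Erg, Mecom, Meis1 and Hlf in the 4 libraries, with 1 tick for each peak at its midpoint and the distance from the start of the gene in kb on the horizontal axis; the black bar is the gene. Ticks crowd at the start of Runx1 and past 127 kb in Erg, and thin out past 535 kb in Mecom.

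Among the shorter genes peaks were spread unevenly along the body. In Gfi1b the seventh part of the body was 40.4, 42.4, 41.1 and 15.1% under peaks, while the fifth and the sixth held no peak in any library. Gfi1 had 27.7, 17.0, 25.6 and 37.8% in the third part. In wild-type 2 its second part was higher, at 49.3%, and in HDAC7-deficient 1 its first, at 27.0%. Gfi1 had no peak across the fourth and the fifth, where a peak-free gap of 2399 bp held 52.1 CpG per kb. Lmo2 had 36.1, 15.4, 22.2 and 25.1% in the eighth part.

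By sequence class, introns made up 88.6% of the windows and were 10.4, 11.1, 9.78 and 10.9% under peaks. Coding exons were 13.9, 15.4, 8.99 and 13.6% under peaks and untranslated exons 9.84, 7.29, 7.96 and 7.10%. Coding exons thus exceeded introns in 3 of the 4 libraries and untranslated exons fell below them in all 4.

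At the start of the genes peaks were about as frequent as at other genes. Within 1000 bp upstream to 100 bp downstream of the start, 2 of the 10 genes, Tal1 and Gfi1b, had a peak in every library, against 21.1% of all protein-coding genes. Gata2 had none in any library, its nearest peak to the start lying 2410, 2363, 2577 and 402 bp away. RefSeq lists 16 promoters for 9 of the genes, Lmo2 being the other, taken as 250 bases before to 50 after each start on GRCm38.p6. Of these, 9 met no peak in any library, a share of 56.2% against 51.1% of 32619 promoters.

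Promoters with at least 15 CpG dinucleotides met no peak in 6 of 9 cases (50.8% among all such promoters) and the others in 3 of 7 (51.3%). The 250 bases before the start are shown for the first promoter of Gata2 and the proximal promoter of Runx1, both rich in CpG and free of peaks, and for the first promoter of Tal1, the 1 promoter that met a peak in all 4 libraries. They are written in the direction of transcription, with CpG in capitals.
Gata2, chr6:88193641-88193890: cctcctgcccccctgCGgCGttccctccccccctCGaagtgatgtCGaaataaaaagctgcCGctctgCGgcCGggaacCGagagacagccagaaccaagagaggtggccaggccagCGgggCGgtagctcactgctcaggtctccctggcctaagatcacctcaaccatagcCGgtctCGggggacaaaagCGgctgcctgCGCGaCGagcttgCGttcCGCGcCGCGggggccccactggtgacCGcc
Runx1, chr16:92697330-92697579: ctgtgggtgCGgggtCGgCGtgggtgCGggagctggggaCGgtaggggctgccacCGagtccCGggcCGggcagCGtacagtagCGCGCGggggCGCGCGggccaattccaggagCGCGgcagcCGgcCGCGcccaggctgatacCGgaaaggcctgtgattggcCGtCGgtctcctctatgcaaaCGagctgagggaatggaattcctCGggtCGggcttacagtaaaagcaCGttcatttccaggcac
Tal1, chr4:115056176-115056425: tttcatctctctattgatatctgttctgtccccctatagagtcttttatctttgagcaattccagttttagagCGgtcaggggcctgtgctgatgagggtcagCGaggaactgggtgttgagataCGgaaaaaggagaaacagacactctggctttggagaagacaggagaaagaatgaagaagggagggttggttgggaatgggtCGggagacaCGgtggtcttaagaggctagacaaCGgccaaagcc

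The Gata2 bases hold 22 CpG dinucleotides, those of Runx1 27 and those of Tal1 6. The second promoter of Gata2, 4.67 kb into the gene, with 29 CpG in its 300 bases, also met no peak, and neither did those of Hlf (30) and Meis1 (15) or the first of Erg (16). The distal promoter of Runx1, with 2 CpG, was free of peaks as well, so the peak-free promoters were of both kinds. With 1000 bp added on each side, all but 1 of the 16 met a peak in at least 2 libraries, the exception being the first promoter of Gata2, which met 1 peak of 44 bp in HDAC7-deficient 2.

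In tiles of 1 kb, coverage over the 10 genes was highest at 20 to 39 CpG in wild-type 1 and both HDAC7-deficient libraries and at 40 or more in wild-type 2. It averaged 9.41% in tiles with 0 to 4 CpG, 12.3% in those with 20 to 39 and 9.86% in those with 40 or more. Over all protein-coding genes the same classes had 9.44, 11.2 and 10.03%. The 38 tiles with 40 or more CpG varied most, between 7.94% in wild-type 1 and 13.1% in wild-type 2. Gata2 held 8 of these tiles, at a mean of 4.53% against 9.60% in its other tiles, while the 3 of Tal1 were at 21.2%.

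**Figure D4:**
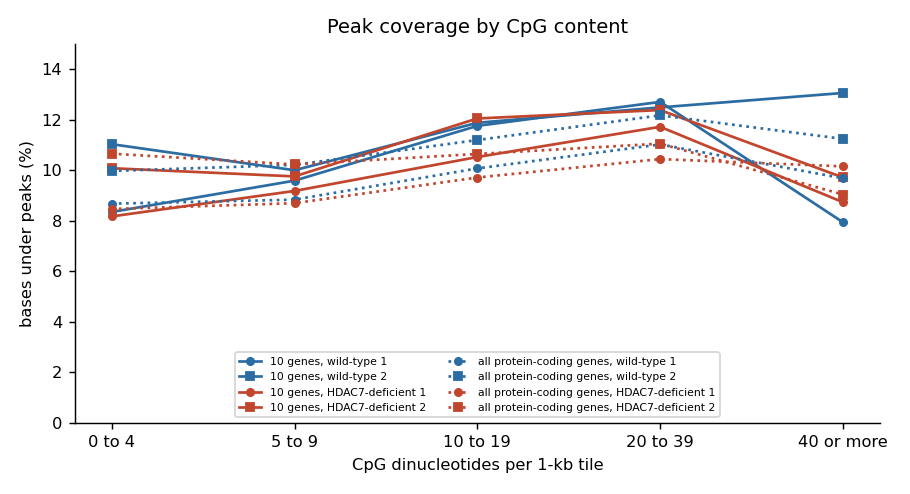
Percent of bases under peaks in 1-kb tiles (vertical axis) by the number of CpG dinucleotides in the tile, for the 10 genes (solid) and all protein-coding genes (dotted) in each library. Both sets are highest at 20 to 39 CpG on average (12.3 and 11.2%), and the libraries spread most at 40 or more.

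Summed over the 10 genes, the genotypes overlapped. Their windows held 875 and 831 peaks in wild-type against 859 and 805 in HDAC7-deficient cells. The ratio of the means, HDAC7-deficient to wild-type, was 0.975 ± 0.0572 (SD from the spread of both groups, n = 2 and 2), with a two-sided exact permutation p of 0.667. The bases under peaks came to 149897 and 158755 against 139606 and 155419, a ratio of 0.956 ± 0.0822 (exact permutation p = 0.667). With 2 libraries in each group the smallest p that this test allows is 0.333, so it cannot reach 0.05 here. Over all protein-coding genes the ratios were 1.01 for peaks and 0.981 for bases, and the groups overlapped there too.

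At single genes the counts of separated groups were near those of protein-coding genes in general or below them. In no gene did each HDAC7-deficient library hold more peaks than each wild-type library, which 12% of protein-coding genes showed. Gfi1 had fewer in each, as 10.8% of protein-coding genes did, with 15 and 10 peaks after loss of HDAC7 against 16 in both wild-type libraries. Its ratio was 0.781 ± 0.221 (exact permutation p = 0.333), and its bases under peaks, 1866 and 2466 against 1973 and 2555, overlapped between the groups.

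Hlf had more bases under peaks in each HDAC7-deficient library, as 10% of protein-coding genes did, with 6551 and 6231 bases against 5541 and 5750 in wild-type cells. Its ratio was 1.13 ± 0.0498 (exact permutation p = 0.333), with the number of peaks overlapping. No gene had fewer bases in each, against 17.1% of protein-coding genes. The median log2 ratio of bases was -0.09 over the 10 genes and -0.05 over all genes tested, and that of peaks -0.04 and 0.00.

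**Figure D5:**
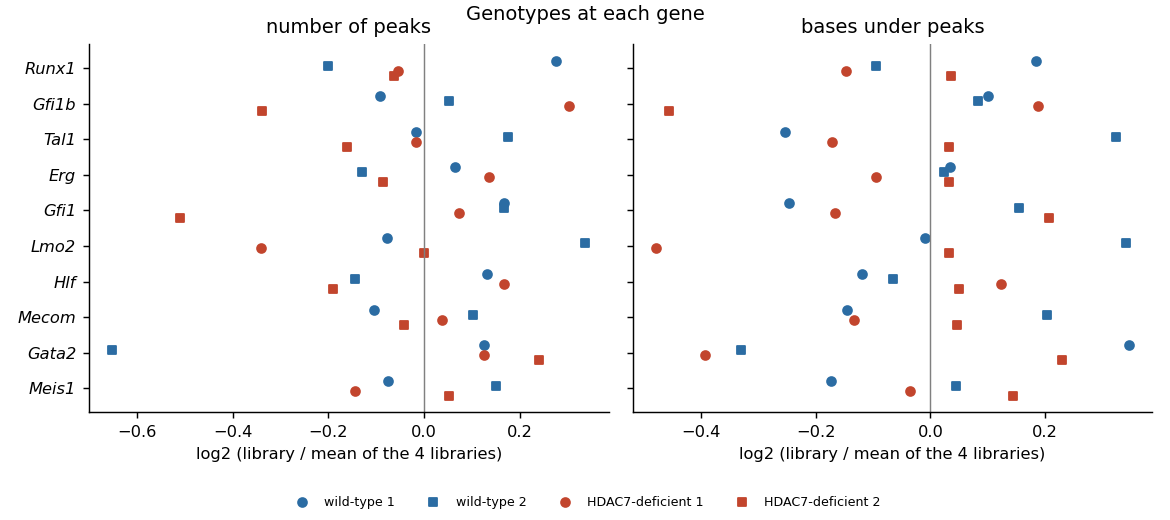
Number of peaks (left) and bases under peaks (right) of each gene in each library, as the log2 ratio to the mean of the 4 libraries. The groups separate for Gfi1 in peaks, where both wild-type libraries have 16, and for Hlf in bases, and overlap in every other case shown.

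Dividing by the same library's value over the whole chromosome separated Tal1 in peaks (lower in HDAC7-deficient libraries), Meis1 in bases (higher) and Lmo2 in bases (lower), beside Gfi1 and Hlf. The share of all protein-coding genes separated on this scale is not given here, so these cases cannot be read against a background. Runx1 and Erg did not separate on either scale, and with the high count of chromosome 16 in HDAC7-deficient 2 divided out, the ratio of Runx1 went from 0.923 to 0.849 in peaks and from 0.931 to 0.867 in bases. That of Erg turned from 1.04 to 0.963 in peaks and went from 0.960 to 0.901 in bases.

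Peaks of the 4 lists that shared at least 1 bp were merged into 1592 regions over the 10 windows. A peak of every library lay in 202 regions, 12.7% of them, against 12.5% of all regions on chromosomes 1 to 19 and X, and 860, or 54.0%, came from 1 library alone (52.7% of all regions). Most regions over these genes were therefore not found in a second library, which limits what a difference between 2 and 2 libraries can show. Regions with all 4 libraries were frequent in Runx1 (50, or 21.3 per 100 kb, 99.2nd percentile) and Erg (49, 20.6 per 100 kb, 98.1st percentile) and sparse in Meis1 (11, 7.37 per 100 kb, 8.38th percentile). Tal1 had 7 and Gfi1b 6, or 27.6 and 26.6 per 100 kb, and 171 of the 202 lay in introns.

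A region was called gained when both HDAC7-deficient libraries had a peak in it and the wild-type libraries had none, and lost in the opposite case. There were 35 gained, 2.20% of the regions against 2.92% of all regions, and 49 lost, 3.08% against 2.4% of all regions. Pairs of 1 wild-type and 1 HDAC7-deficient library were the only carriers of a region about as often or more. Wild-type 1 with HDAC7-deficient 1 had 81 (5.09%, against 4.43% of all regions) and wild-type 2 with HDAC7-deficient 2 had 54 (3.39% against 3.43%). Wild-type 2 with HDAC7-deficient 1 had 54 (3.39% against 2.73%) and wild-type 1 with HDAC7-deficient 2 had 39 (2.45% against 2.59%). Gained and lost regions therefore do not by themselves mark the genotype. The counts of each gene follow, with the means over genes of like length in brackets. Mecom had 13 gained and 16 lost (15.9 and 12.7), Runx1 8 and 11 (7.01 and 5.87) and Erg 5 and 6 (7.11 and 5.96). Meis1 had 6 and 3 (4.39 and 3.97) and Hlf 2 and 4 (1.90 and 1.80). Lmo2 (1.01 and 0.962) and Tal1 (0.783 and 0.761) had none gained and 3 lost each. Gfi1b had 1 of each kind (0.703 and 0.692). Gata2 (0.724 and 0.715) and Gfi1 (0.619 and 0.579) had none gained and 1 lost. These differences from the means were not tested. Of the gained regions 33 and of the lost 41 were intronic.

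The lost region of Gata2 is shown because of where it lies, in an intron 9.21 kb from the start (chr6:88202949-88203245), with 13 CpG over its 297 bp. Its peak was 118 bp wide in wild-type 1 and 297 bp in wild-type 2, and neither HDAC7-deficient library had one. An intron of Gata2 holds a well-known enhancer of blood stem cell formation, which joins an E-box, CATCTG, to a GATA site, AGATAA, across a spacer of 8 bases. Searched on both strands, that arrangement occurred once in the 10 windows, inside this lost region. It was looked for after the region had been seen. The 118 bases under a peak in both wild-type libraries come first, with CpG in capitals, and then the element on the plus strand, with both motifs in capitals.
Gata2, chr6:88202985-88203102: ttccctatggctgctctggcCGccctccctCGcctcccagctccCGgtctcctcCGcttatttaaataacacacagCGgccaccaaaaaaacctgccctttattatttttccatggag
Gata2, chr6:88203185-88203204: CATCTGcagccggtAGATAA

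The peak of wild-type 2 covered the element, that of wild-type 1 ended 83 bp before it, and the nearest peaks of HDAC7-deficient 1 and 2 lay 1691 and 1348 bp away. Over all regions lost ones were 2.4%, so 1 lost region among the 25 of Gata2 is near what any such set holds, and the peak over the element itself was in a single library.

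For the other genes the gained and lost regions with the widest smaller peak were as follows. Erg gained a region in an intron at 92.6 kb with peaks of 386 and 679 bp, and lost one at 145 kb with peaks of 288 and 273 bp. Runx1 gained one in an intron between its promoters at 109.6 kb, with peaks of 213 and 328 bp and 5 CpG, and lost one at 60.8 kb with peaks of 267 and 287 bp. Hlf gained one of 152 and 147 bp at 8.81 kb and lost one of 271 and 152 bp at 36.3 kb. Mecom gained one of 270 and 248 bp at 114.9 kb and lost one of 346 and 334 bp at 367 kb, both intronic. Meis1 gained one of 180 and 408 bp in an intron at 116.5 kb. It lost one of 270 and 259 bp that straddled the upstream edge of its window. The bases shared by both of its wild-type peaks (chr11:19024078-19024220) lay outside the window.

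The lost region of Gfi1, at -2.73 kb, had peaks of 73 and 280 bp, and that of Gfi1b, intronic at 3.60 kb, peaks of 253 and 317 bp. Gfi1b gained one downstream, at 17.5 kb, with peaks of 38 and 139 bp. Lmo2 lost one of 239 and 347 bp in an intron at 21.3 kb with 10 CpG, and Tal1 one of 289 and 177 bp at 18.9 kb, past its end. The shared bases of the gained Runx1 region and of the lost Lmo2 region are shown as examples of CpG-bearing sequence on each side, with CpG in capitals.
Runx1, chr16:92716416-92716628: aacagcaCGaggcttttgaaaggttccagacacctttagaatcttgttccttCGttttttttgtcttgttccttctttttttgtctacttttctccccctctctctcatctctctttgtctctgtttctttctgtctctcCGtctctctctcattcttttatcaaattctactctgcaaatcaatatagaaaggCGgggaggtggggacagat
Lmo2, chr2:103979277-103979407: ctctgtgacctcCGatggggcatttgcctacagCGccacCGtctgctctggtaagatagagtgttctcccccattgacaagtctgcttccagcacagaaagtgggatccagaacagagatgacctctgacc

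Of 4 short motifs bound by these factors, 3 were about as frequent in long stretches shared by all 4 libraries over the 10 genes as across the genome. In the central 150 bp of the 51 stretches of at least 150 bp that lay under a peak in all 4 libraries, the RUNX motif TGTGGT occurred in 8 (15.7%, against 9.13% of 82247 such stretches in the genome). That difference rests on these 8 stretches, in Erg, Lmo2, Mecom, Meis1 and Runx1, and was not tested. In the 188-bp stretch of Meis1, which was 78.2% repeat, the match lies in a TG-rich run. How many of the other matches lie in repeats is not given here. The GATA motif AGATAA and the E-box CAGATG occurred in 5 each (9.80%, against 9.70 and 8.58%) and the ETS motif AGGAAG in 18 (35.3%, against 34.3%). Both strands were searched for the exact letters, and a match is a description and not a binding site.

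A further list of 18 genes of the same network overlapped between the genotypes for the most part, in 15 genes for peaks and 13 for bases. Lyl1 (a relative of Tal1) alone had more peaks in each HDAC7-deficient library, and Zfpm1 and Hoxa9 had fewer. Hhex alone had more bases, and Cbfb, Zfpm1, Spi1 and Hoxa9 had fewer. Of all protein-coding genes 12% had more and 10.8% fewer peaks, and 10% more and 17.1% fewer bases, so the counts of 1, 2, 1 and 4 of 18 were near the background. Scaled to the chromosome, the bases of Zfpm1 and Cbfb overlapped between the genotypes. Hoxa9, a homeobox partner of Meis1, had 17 and 16 peaks against 14 and 11, and 2530 and 2777 bases against 2285 and 1443, in a window shared with Hoxa10 and Hoxa7. Zfpm1, the GATA cofactor FOG-1, had 51 and 52 peaks against 49 and 42, and 8174 and 9324 bases against 8159 and 6596, in a window shared with Gm20388.

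Spi1, which encodes the myeloid and B lineage ETS factor PU.1, had the highest rank of the list, the 99.5th percentile, with 25.7, 23.5, 15.4 and 18.3% of its window, which it shares with Mybpc3, under peaks. Its bases under peaks were 11142 and 10181 in wild-type against 6700 and 7957 in HDAC7-deficient cells, a ratio of 0.687 ± 0.0942 (exact permutation p = 0.333). Mycn had the lowest rank, the 9.36th percentile. The summed bases of the 18 genes were 212462 and 207078 against 194029 and 202297, a ratio of 0.945 ± 0.0327 (exact permutation p = 0.333), and their summed peaks overlapped.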

How the data were processed

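hMeDIP-seq peaks of 4 libraries were analysed; the 4 input libraries were not analysed here. According to the methods and labels, reads were trimmed (Trim Galore, version 0.4.2, on Cutadapt, version 1.6), mapped to mm10 (the methods name bwa, the labels Bowtie2), freed of duplicates and normalized with deepTools. Peaks were called in each library alone with MACS2, and those meeting input peaks were removed. The files deposited by the authors hold chromosome, start and end, with no score, so no depth, interval or count model was available and values are numbers of peaks and of bases.

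Genes came from GENCODE M21, sequences and soft-masking from GRCm38. A peak counted for a window when it shared at least 1 bp with it. Groups were compared by exact permutation over the 6 ways to choose 2 of 4 libraries. Counts of genes whose groups did not overlap were set beside the percent of all protein-coding genes. Python 3.11.15, NumPy 2.4.6, pandas 2.3.3 and matplotlib 3.10.9 were used, and counting was tested on simulated peaks. The 10 genes, the list of 18 and the motifs were chosen with earlier results of these data known. Of the 18, those separated in both measures and of highest and lowest rank are named, and Lyl1, Hhex and Cbfb after their values were seen. Regions named are the longest shared stretch (1 of these is not reported here) and the gained and the lost region with the widest smaller peak of each gene. Alternatives changed the peak width, the window, the scaling, the likeness of length, the merging and the libraries used, and, added after seeing the data, left out soft-masked bases.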

Additional observations from a re-analysis of the deposited data

How the results depend on the processing

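Peak lists without heights give presence alone, and with 2 libraries a group the exact permutation test used here cannot pass 0.05, so the genotype values are descriptions. The ratio of summed peaks stayed below 1 under all alternatives except those that left out a library, which gave 0.944 to 1.007 (1.001 without wild-type 1, 1.007 without HDAC7-deficient 2); for bases they gave 0.905 to 1.007 (1.007 without HDAC7-deficient 1). The replicate block, the geometric mean over libraries of the same number, gave 0.975 for peaks and 0.955 for bases (exact sign-flip p = 0.5, the smallest it allows), and the labels do not say that a number marks a shared litter or day. Same-numbered libraries had deviations over 21136 genes correlating at 0.08. Coverage of the genome was nevertheless lower in both libraries numbered 1 than in both numbered 2.

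With peaks of at least 200 bp, 1 gene had more and 2 fewer peaks in both HDAC7-deficient libraries, 2 had more and 1 fewer bases, no gene kept a promoter peak in every library (0), the median percentiles were 48.6 for peaks per kb and 44.5 for bases, and 18 regions were gained and 26 lost. With the gene body alone 2 genes had fewer bases. With 50 kb on each side 0 had fewer peaks, 0 more bases, and 63 regions were gained and 76 lost. Scaled to the chromosome, 2 had fewer peaks, 2 more bases and 1 fewer bases. Within 1000 bp on each side of the start, 4 had a promoter peak in every library. Leaving out a library gave 1 to 3 genes with more peaks, 2 to 5 with fewer, 1 to 5 with more bases, 1 to 4 with fewer, 2 to 4 with promoter peaks, percentiles of 57.4 to 68.6 and 49.6 to 56.5, 78 to 264 gained and 88 to 310 lost regions, since a single library then stands for a group. Leaving out soft-masked bases gave 0.940 for bases and a median percentile of 52.7. No share of all protein-coding genes or of all regions is given for these altered settings. Their counts of separated genes, promoter peaks and regions therefore cannot be read against a background.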
